A study of Mus musculus with 27 samples.

Results

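The runs described here are autosomal stretches of CpG positions whose DNA methylation level averaged 40% to 60% in cultured mouse muscle cells of the line C2C12, whose myoblasts form multinucleated myotubes in medium with little serum. Positions with a level in all 27 libraries were joined into runs when neighbours lay at most 200 bp apart, and runs of at least 10 positions were kept. A run was a member when its mean over positions and libraries was 40% to 60% and the mean of each library stayed within 20% to 80%. The rule found 725 members among 14301 autosomal runs, or 5.07%, and they held 30440 of the 853883 autosomal positions measured in every library (3.56%). A further 56 runs had a mean in the same range but at least 1 library outside the limits. Members were thus chosen by the methylation level itself, over the same 27 libraries, so their levels are given as a description with no test.

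All libraries came from differentiated C2C12 cells that received a shock of 50% horse serum for 2 h, a treatment that sets cellular clocks to a common phase, and the labels name no genotype or further agent. Reduced representation bisulfite sequencing, which reads methylation in short fragments cut out by a restriction enzyme and therefore mostly in CpG-rich DNA, was applied to 3 libraries at each of 9 times after the shock (12, 18, 24, 30, 36, 42, 48, 54 and 60 h). Cells that were not shocked were not analysed here, a single line was used, and the labels do not say whether replicates were separate cultures, so the spread between them may be technical. The table gives levels without read counts, and their depth is unknown. The mean over members was 47.6% to 50.1% across the 27 libraries, and the mean over all autosomal runs was 14.4% to 15.7%. Levels at neighbouring positions are not independent, and most CpGs are present as 2 positions 1 bp apart, so a run's number of positions is not its number of measurements. RNA was not analysed here, so expression markers of muscle could not be checked.

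In mammalian genomes most CpGs are either nearly fully methylated or, in CpG islands at active promoters, nearly unmethylated. A level between these states can arise when the 2 parental chromosomes differ, as in genomic imprinting, where a differentially methylated region carries the mark on the maternal or the paternal copy and governs which copy of nearby genes is expressed. It can also arise when cells of a culture differ, or when a run spans the border between a methylated and an unmethylated domain. A level pools all copies in a library. Differences between parental copies and differences between cells therefore cannot be told apart here, while a border is visible as a change of level along the run.

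Promoter sequences of 4 members at imprinted genes, of 1 level member elsewhere and of 1 member with a step are printed to show where in the promoter levels were measured. They are RefSeq sequences of GRCm38.p6 (UCSC name mm10), from 250 bases before to 50 bases after the gene start, 5′ to 3′ on the gene's strand. Capitals mark the bases with a level in all 27 libraries.
Igf2r, chr17:12769657-12769956, minus strand: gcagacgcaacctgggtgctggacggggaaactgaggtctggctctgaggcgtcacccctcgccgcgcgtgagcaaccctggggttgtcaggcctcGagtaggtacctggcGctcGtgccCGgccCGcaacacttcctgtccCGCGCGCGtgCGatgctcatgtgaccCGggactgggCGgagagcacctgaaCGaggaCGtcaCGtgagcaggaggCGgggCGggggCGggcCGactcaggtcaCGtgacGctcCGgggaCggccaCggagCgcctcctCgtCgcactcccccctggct
Snrpn, chr7:60005150-60005449, minus strand: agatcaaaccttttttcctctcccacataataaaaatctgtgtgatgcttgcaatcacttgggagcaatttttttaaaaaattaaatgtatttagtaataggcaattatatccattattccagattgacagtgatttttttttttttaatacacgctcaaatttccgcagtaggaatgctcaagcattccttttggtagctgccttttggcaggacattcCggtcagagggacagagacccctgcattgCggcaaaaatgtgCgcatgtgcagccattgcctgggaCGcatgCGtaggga
Grb10, chr11:12037371-12037670, minus strand: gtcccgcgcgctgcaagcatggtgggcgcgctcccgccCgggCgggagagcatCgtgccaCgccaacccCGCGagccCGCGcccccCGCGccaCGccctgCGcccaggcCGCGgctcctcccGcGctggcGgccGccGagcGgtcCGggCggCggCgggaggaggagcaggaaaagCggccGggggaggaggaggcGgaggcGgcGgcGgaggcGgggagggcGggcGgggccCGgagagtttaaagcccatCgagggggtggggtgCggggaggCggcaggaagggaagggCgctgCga
Zdbf2, chr1:63273019-63273318, plus strand: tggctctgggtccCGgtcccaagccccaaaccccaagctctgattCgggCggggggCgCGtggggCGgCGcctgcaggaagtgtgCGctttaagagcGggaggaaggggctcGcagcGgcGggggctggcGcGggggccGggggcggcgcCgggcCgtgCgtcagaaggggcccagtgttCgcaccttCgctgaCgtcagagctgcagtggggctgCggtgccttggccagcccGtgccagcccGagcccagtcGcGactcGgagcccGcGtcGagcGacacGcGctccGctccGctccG
Fbxo39, chr11:72314194-72314493, plus strand: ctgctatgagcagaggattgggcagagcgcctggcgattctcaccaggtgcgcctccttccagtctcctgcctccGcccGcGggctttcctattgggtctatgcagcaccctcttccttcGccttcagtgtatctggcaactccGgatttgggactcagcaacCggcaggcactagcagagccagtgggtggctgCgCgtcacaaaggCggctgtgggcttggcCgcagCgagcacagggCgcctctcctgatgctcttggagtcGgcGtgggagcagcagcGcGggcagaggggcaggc
Foxd2, chr4:114908849-114909148, minus strand: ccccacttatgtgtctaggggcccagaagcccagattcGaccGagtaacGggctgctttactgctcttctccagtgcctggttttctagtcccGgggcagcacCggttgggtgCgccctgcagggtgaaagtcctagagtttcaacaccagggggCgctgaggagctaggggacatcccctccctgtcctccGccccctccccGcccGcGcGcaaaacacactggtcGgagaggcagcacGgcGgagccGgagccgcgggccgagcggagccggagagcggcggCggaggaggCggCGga

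In the Igf2r promoter the 45 measured bases had means over the libraries of 47.4% to 54.0%, so the whole measured stretch stayed level. The 16 measured bases of the Fbxo39 promoter ranged from 48.1% to 56.7%. The Zdbf2 promoter changed along its length, with 26.5% on average over the first 20 of its 41 measured bases and 62.4% over the remaining 21. The 51 measured bases of the Grb10 promoter averaged 42.0% and ranged from 32.2% to 58.4%. Only 7 bases were measured in the AT-rich Snrpn promoter, all within its downstream end, and they averaged 62.9%. The Foxd2 promoter averaged 2.34% over 20 bases although the run that contains it averaged 44.2%, because that run also holds a methylated part outside the promoter.

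Members at imprinted genes were looked for with a list of 79 genes, 36 of them genes at or next to regions known to control imprinting in mouse, and a run counted as at a gene when it overlapped the annotated gene extended by 5 kb. Of the 79 genes 77 were annotated under the listed symbol and 52 of these had a run, and the runs numbered 60. Members made up 14 of the 60, 5 had a mean of 40% to 60% but a library outside the limits, 33 lay below 40% and 8 above 60%. The imprinted list therefore held 1.93% of members and 0.42% of all autosomal runs, and 23.3% of its runs were members against 5.07% of all autosomal runs. Of the 24 runs at genes of this control list, which need not cover the control region itself, 9 were members and 4 more were in the range but outside the library limits. Cdh15, Gpr1, H19, Igf2, Kcnq1ot1, Meg3, Mest, Peg13, Plagl1 and Slc38a4, also on the control list, had no run of 10 positions, and Nespas is annotated as Gnasas1, which the Gnas runs overlap.

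Igf2r encodes the receptor that carries insulin-like growth factor 2 to lysosomes, and in mouse its promoter is methylated on the paternal chromosome, where the antisense RNA Airn is made. Its member, chr17:12769423-12769860, covers the Igf2r start with 71 positions and averaged 46.9% ± 12.7 (SD, n = 27 libraries), the largest SD between libraries of all 725 members. The library limits also cap this SD, and over all 781 autosomal runs with a mean of 40% to 60% Igf2r ranked 25. Run means were 25.4%, 58.0% and 68.2% at 12 h, 37.6%, 46.7% and 48.5% at 18 h, and 69.7%, 61.8% and 63.1% at 24 h. They were 40.3%, 34.3% and 64.2% at 30 h, 23.2%, 44.5% and 32.9% at 36 h, and 59.3%, 56.6% and 48.8% at 42 h. The last 3 time points had 38.3%, 53.6% and 44.5% at 48 h, 31.0%, 44.7% and 37.7% at 54 h, and 39.6%, 45.3% and 48.0% at 60 h. The 3 libraries at 24 h were all high, and those at 36 h and at 54 h were all below 45%. Those at 12 h spanned from 25.4% to 68.2%. Along the run the means over libraries were flat, with an SD over positions of 3.66 points, so the even average was built from libraries that differed widely.

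Gnas encodes the alpha subunit of the stimulatory G protein, and alternative promoters of the locus are imprinted. The member chr2:174284649-174286109 lies 329 bp from the Gnas start in the promoter table, has 93 positions and averaged 46.7% ± 7.14 (n = 27). The lowest library was at 29.6%, the median at 47.8% and the highest at 58.2%. Its position means ran from 40.8% to 60.5% over 1461 bp. A second Gnas run, 49 bp on the other side of that start, averaged 41.6% but had libraries from 19.5% to 64.2% and was left out by the lower library limit.

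Snrpn, which encodes a splicing protein and lies at the control region of the cluster affected in human Prader-Willi syndrome, had a member at chr7:60004580-60005229 with 31 positions. It averaged 55.4% ± 10.8 (n = 27), with 29.4% in the lowest library, 56.6% in the median and 75.8% in the highest. In the same cluster Peg12 had a member at 43.2% ± 8.42 (chr7:62463451-62463792) and, 385 bp further on, a run at 44.4% ± 10.3 that 1 library at 13.6% took out of the limits. Mkrn3 stood just below the range at 37.4% and Magel2 above it at 70.6%. The Ube3a run averaged 2.54%.

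Zrsr1, a splicing factor gene that lies inside an intron of Commd1, had a member of 88 positions at 44.2% ± 4.79 (chr11:22971902-22973169, n = 27). The next run, 698 bp away at chr11:22973867-22974253, averaged 45.3% ± 5.99. One more run at Commd1, a gene for a regulator of copper handling, averaged 3.75%. Intermediate levels at this locus thus covered the Zrsr1 side and were absent at the other Commd1 run measured.

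Grb10 encodes an adaptor that restrains insulin receptor signalling, and its member covered the start with 136 positions at 58.9% ± 3.25 (chr11:12037052-12037996, n = 27). The library means lay between 52.8% and 66.1%. With 1 value for each group of positions 1 bp apart the Grb10 mean was 61.1%, outside the range. Zdbf2, a zinc finger gene, had a member of 166 positions across its start at 53.2% ± 3.32 (chr1:63272964-63273786), with libraries at 46.0% to 58.9%. These had the smallest SDs between libraries of the 14, and each held over 100 positions.

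Peg10, a gene derived from a retrotransposon that is needed in the placenta, had a short member of 14 positions at 44.1% ± 10.8 (chr6:4747355-4747490, n = 27), with 21.1% in the lowest library, 42.4% in the median and 69.0% in the highest. Asb4, in the same cluster, had a member at 49.2% ± 3.64 (chr6:5383722-5384099). Cdkn1c, which encodes a cell-cycle inhibitor, had members at 40.1% ± 10.9 (chr7:143458918-143459461) and 47.6% ± 6.50 (chr7:143459759-143460142), 298 bp apart. Rasgrf1, an exchange factor for Ras, had a member near its start at 55.5% ± 6.42 (chr9:89908695-89909376) and a second run at 33.7%, below the range. Sfmbt2, a Polycomb-group gene, had 10 positions at 43.9% ± 3.66 (chr2:10370218-10370381).

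Peg3, a zinc finger gene expressed from the paternal copy, shows what the library limits removed. Its run of 10 positions averaged 46.6%, yet its libraries ran from 4.09% to 94.3% with an SD of 21.0 points. At 12 h the 3 libraries had 82.4%, 57.8% and 94.3%, and at 18 h they had 21.1%, 63.6% and 4.09%. Impact (44.5% ± 10.4) and the Mcts2 and H13 locus (41.8% ± 8.64) were also in the range on average, with lowest libraries at 9.03% and 18.6%. In all, 5 of the 56 runs taken out by the library limits were at listed imprinted genes (8.93%).

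Not every run at a listed imprinted gene was intermediate, and such a run need not cover a differentially methylated region. Both runs at Nnat, a brain proteolipid gene, stood at 96.7% and 93.6%, and Nap1l5 averaged 69.6%. Dlk1 averaged 28.5% and Dio3 36.6%, while Kcnq1 averaged 14.7%. Host or neighbour genes such as H13, Herc3, Inpp5f and Trappc9 had runs of 2.20% to 3.72%.

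**Figure D1:**
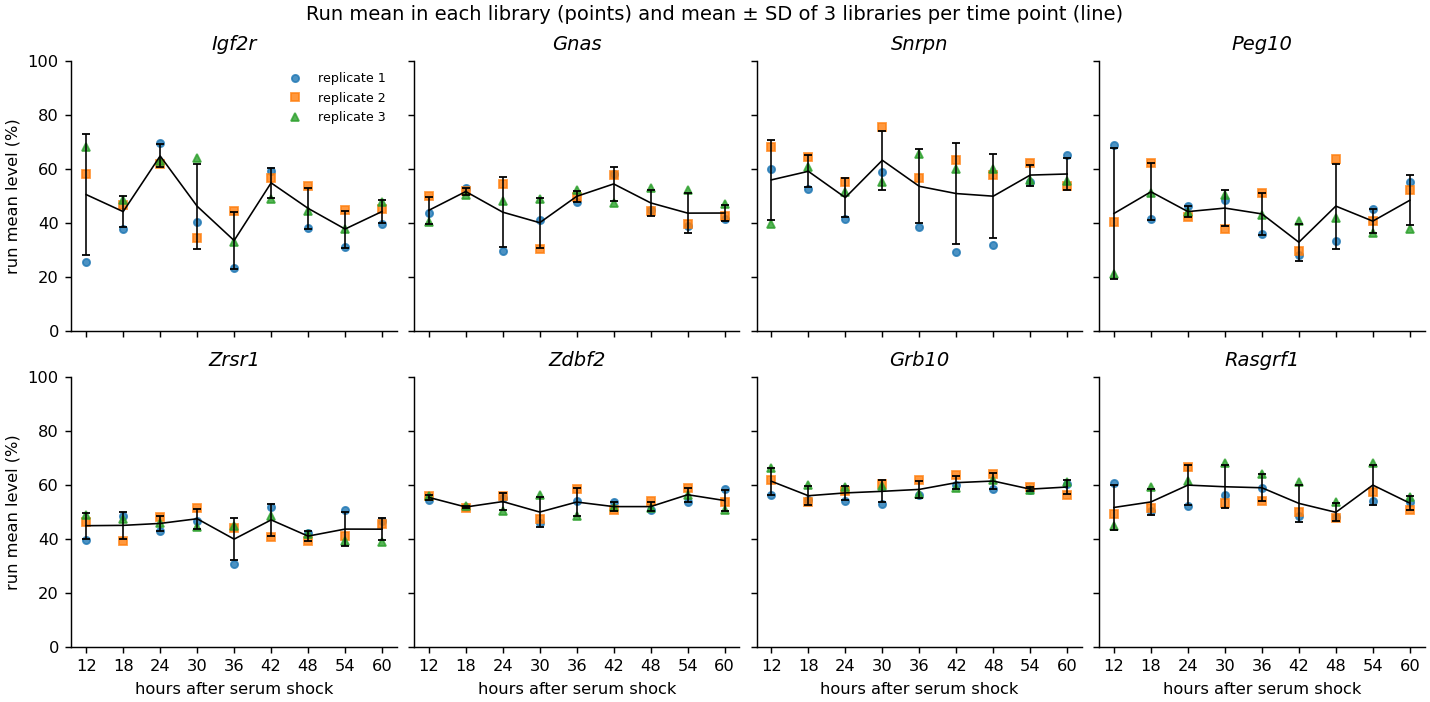
Run mean methylation level (%) in each library (points, shaped by replicate number) against hours after serum shock, with the mean and SD of the 3 libraries per time point (line and bars), for 8 members at imprinted genes. Igf2r spreads from 23.2% to 69.7%, while Zdbf2 stays between 46.0% and 58.9%.

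How much of this spread was common to a whole run was read from its parts. Each run was divided into 3 equal lengths, and the left and right parts (low and high coordinates) were compared in each library. In the Igf2r member the left part had 4.35% in its lowest library and 97.1% in its highest, with a mean of 42.5% ± 26.2 (n = 27). The right part, which lies inside the promoter window, averaged 49.9% ± 11 and ran from 27.9% to 64.6%. The difference between right and left parts went from -54.9 to 54.0 points, and the right part was the higher in 20 of 27 libraries. A single library could thus be low at one end and high at the other although both ends had similar means. For the Rasgrf1 member the left part averaged 68.4% ± 9.13 and the right part 35.8% ± 22.0, the right part being higher in 2 of 27 libraries. For Snrpn the left part averaged 40.4% ± 11.3 and the right part 61.8% ± 14.8, higher on the right in 24. The Zdbf2 member had the same order in each library, with 29.5% ± 5.36 on the left and 57.5% ± 4.68 on the right, and the right part was higher in 27 of 27 libraries, by 5.84 to 38.9 points.

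Deviations of the 2 end parts from their time-point means had a median correlation over libraries of -0.111 in the 12 members at imprinted genes whose end parts lay at least 100 bp apart, and of 0.00993 in 425 other members. Both are descriptions over 27 libraries and were not tested. Members at imprinted genes also did not move together from library to library, with a mean pairwise correlation of 0.0409 over 91 pairs, beside 0.013 over 262450 pairs of members.

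**Figure D2:**
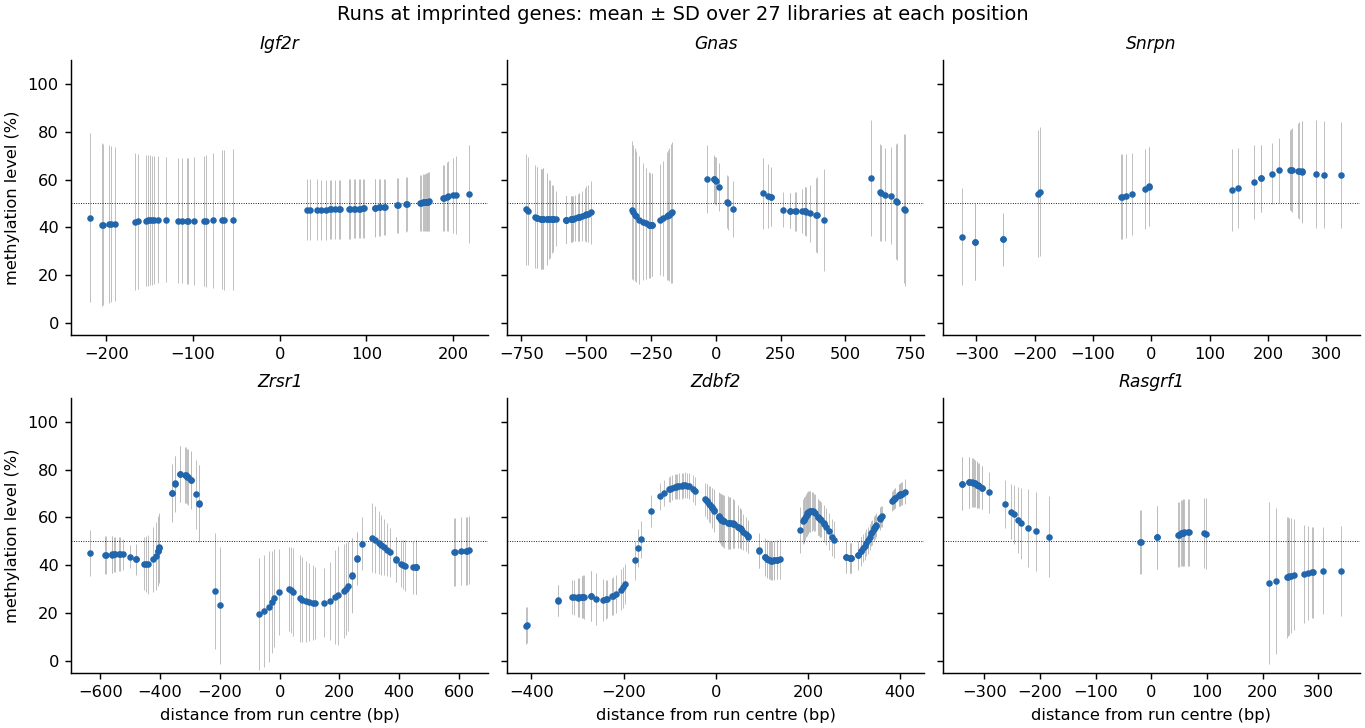
Methylation level (%) at each position against distance from the run's centre (bp) for 6 members at imprinted genes, as mean and SD over 27 libraries. Igf2r is flat on average with wide bars on its left, Zdbf2 and Zrsr1 change along the run, and Rasgrf1 is higher on the left (68.4%) than on the right (35.8%).

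The residual SD measures this local disagreement. It is the SD of single values after the mean of each position and the mean of each library were taken off, so neither a slope along the run nor a library that is high throughout adds to it. Its median was 12.0 points in the 14 members at imprinted genes and 7.65 points in the other 711, beside 3.52 points over all autosomal runs and 7.12 points over the 2023 autosomal runs between 20% and 80% that were not members. Gnas ranked 1 of 725 with 16.4 points, Igf2r ranked 3 with 15.5, Rasgrf1 ranked 6 with 14.5 and Snrpn ranked 7 with 14.4. Peg12, Cdkn1c and Zrsr1 ranked 13, 18 and 19, so 7 of the 20 members with the largest residual SD were at listed imprinted genes, where these 20 are 2.76% of members. This ranking was chosen after values were seen. The other 13 of the 20 were at or nearest to Yjefn3, Niban1, Foxl1, Cgref1, Slit2, Crabp2, Pde8a, Dsg2, Loxl1, Tmem100, Dusp4, Gpr157 and Unc80. Imprinting did not go with a high value throughout, since Sfmbt2 ranked 673, Asb4 591, Zdbf2 472 and Peg10 405. Over the 781 autosomal runs in the range, library limits aside, the Gnas, Igf2r, Rasgrf1 and Snrpn members ranked 3, 6, 10 and 11. There the second Gnas run ranked 779 with 1.44 points. Members at imprinted genes were also longer, with a median of 491 bp against 353 bp in the other members. When members of at least 300 bp were ranked alone, the number at imprinted genes among the 20 with the largest residual SD was again 7.

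**Figure D3:**
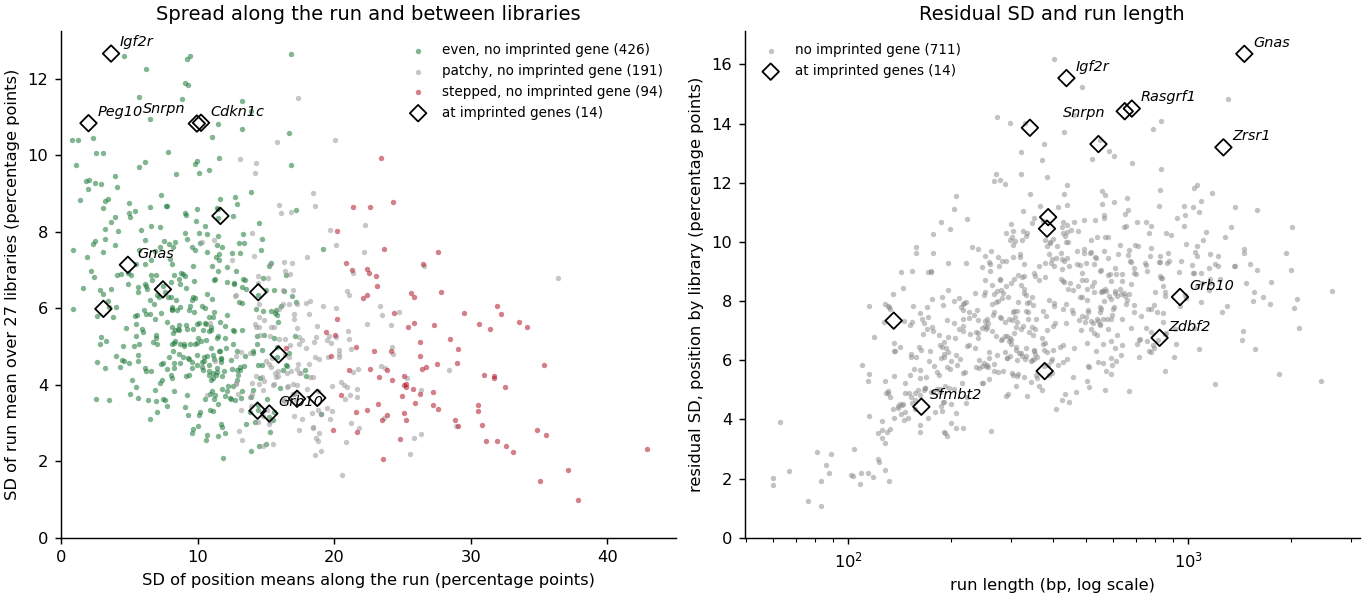
Left, SD of the run mean over 27 libraries (vertical) against SD of position means along the run (horizontal), both in percentage points, for 725 members by shape, with members at imprinted genes as diamonds. Right, residual SD (vertical, percentage points) against run length (bp, log scale). Igf2r has the largest SD between libraries (12.7 points), and Gnas the largest residual SD (16.4 points).

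Members were sorted by shape along the run. A member was called even when at least 90% of its positions had a mean of 25% to 75%, which held for 436 of 725 (60.1%). It was called stepped when it was not even and a single split left side means at least 40 points apart while taking up at least 70% of the variance between positions, which held for 94 (13%). The remaining 195 (26.9%) were called patchy. Of the 14 members at imprinted genes, 10 were even, none was stepped and 4 were patchy (Grb10, Zrsr1, Asb4 and Peg12). Even members could still change level along the run. Across the split that took up most variance, right minus left was 37.7 points at Sfmbt2, 31.4 at Zdbf2 and 24.5 at Snrpn. It was -25.45 at Rasgrf1, and -29.4 and 11.6 at the 2 Cdkn1c members. At Gnas, Igf2r, Peg10 and Commd1 it was 7.28, 6.76, -4.04 and -4.75. Levels rose or fell steadily with the coordinate, with a Spearman rho of at least 0.8 in size, in 221 members (30.5%). The share was 18.9% in all autosomal runs and 30.1% in the 2023 autosomal runs between 20% and 80% that were not members. Among members it held for 125 even, 58 stepped and 38 patchy ones.

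Among single values, one position in one library, the median share at 25% to 75% was 90.9% in even members, 75.8% in patchy and 51.0% in stepped ones. The share was 57.3% in the even member where it was lowest. The SD between libraries had a median of 5.82 points in even members, 4.42 in stepped and 4.70 in patchy ones. It was 2.14 over all autosomal runs, whose median level was 4.05%. Over the 2023 autosomal runs between 20% and 80% that were not members it was 4.95.

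Stepped members were defined by their best single split, which does not tell an abrupt change from a gradual one. Of the 94, 58 (61.7%) also had a Spearman rho with the coordinate of at least 0.8 in size. Some of their sides were themselves intermediate, as at Bcl2l1 with 59.6% on the left and 12.6% on the right. The split had the same direction in 27 of 27 libraries for all 94, and for 156 of the 195 patchy members. It was placed on the mean of these same 27 libraries, and stepped members need sides at least 40 points apart. Agreement between libraries was therefore largely set by the rule and is no test of the steps. The widest step was at Utp4, a gene for a ribosome assembly factor (chr8:106894244-106894651), with 11.7% on the left and 95.0% on the right. Foxd2, a forkhead transcription factor gene, had 282 positions over 2457 bp (chr4:114907217-114909673), with 79.2% on the left and 5.10% on the right, and its run mean was 44.2% ± 0.996 (n = 27), the smallest SD between libraries of all members. Sp8, a zinc finger transcription factor gene, had 8.28% on the left and 74.8% on the right of 269 positions (chr12:118848131-118849982). Egr3, an early growth response gene, had 5.64% and 75.7% on the left and right of 218 positions (chr14:70077969-70080078). In these the sides kept their order in every library, and the run average described neither side.

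The other stepped members with the widest steps were Yif1b, Gse1, Pwwp2b, Cyb5r3, Gmpr and Rnf208, with side means 62.6 to 66.3 points apart. With 1 value for each group of positions 1 bp apart the Yif1b mean was 36.4%, also outside the range. Gse1 had 24.0% on the left and 89.2% on the right, and Gmpr had 81.9% on the left and 18.2% on the right. Where a gene start lay within 1000 bp of a stepped member, which it did for 54, it was on the low side in 45 (83.3%). The start lay inside the run in 15 of them, and in 13 of these on the low side. The 9 with the start on the high side were at Dok3, Syngr1, Smc1b, Ccl27a, Elavl2, Selenon, Brdt, Ffar1 and Prr23a1. Brdt encodes a testis bromodomain protein, and its member had 77.7% on the left and 19.6% on the right (chr5:107331610-107331966).

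**Figure D4:**
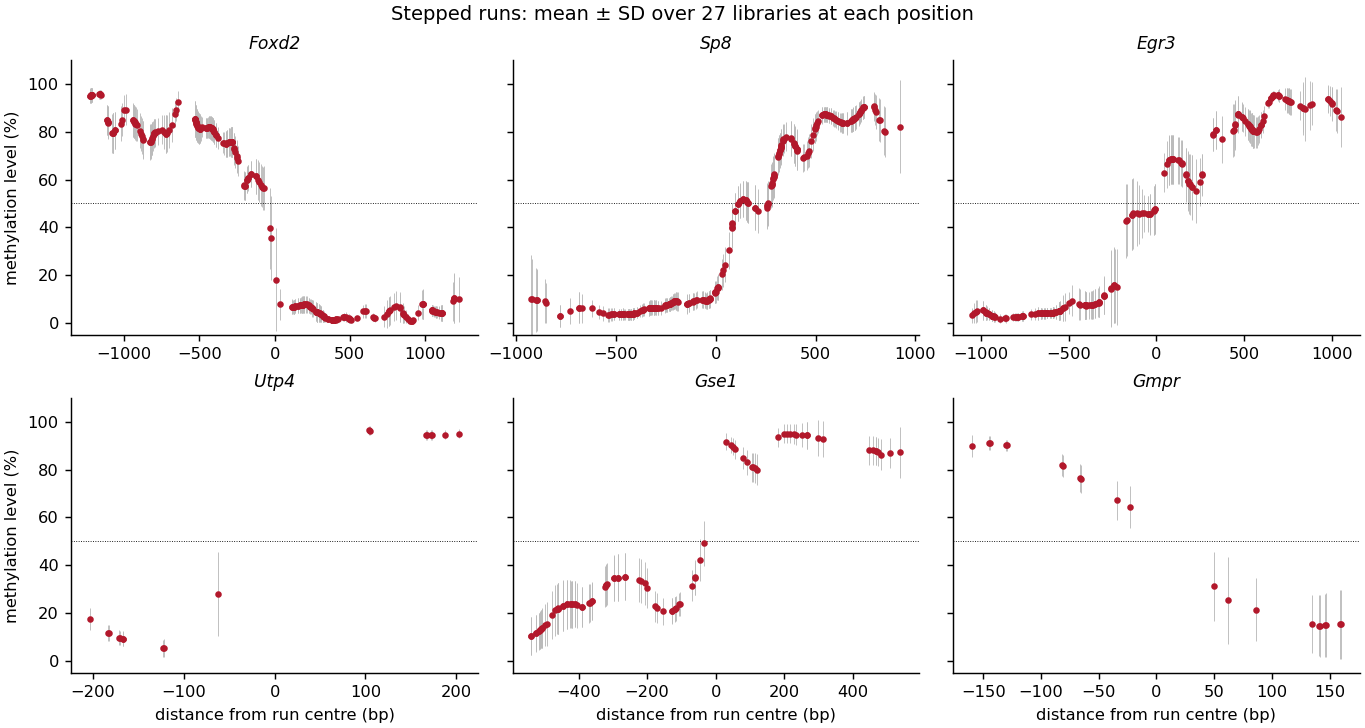
Methylation level (%) at each position against distance from the run's centre (bp) for 6 stepped members, as mean and SD over 27 libraries. Each has a low and a high side; at Foxd2 the sides average 79.2% and 5.10%.

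The flattest even members were short. Those at no imprinted gene with the smallest SD over positions included Cntnap1, Irx2, Atp8b3, Zic1, Lama3, Dlgap1, Nkx2-3, Smim1 and Itgb8, and none of these was longer than 156 bp. Cntnap1 (chr11:101177439-101177501) had an SD over positions of 0.804 points and a mean of 49.2% ± 10.4 (n = 27), with libraries from 28.8% to 78.1%. Over so short a stretch flatness is a weak description, because neighbouring levels move together. Among the 572 members of at least 200 bp, 22 (3.85%) had an SD over positions of at most 5 points, limits that were set after values were seen. They included 3 of the 12 members of this length at imprinted genes (25%), namely Igf2r, Gnas and the run at Commd1. The other 19 included the starts of Fbxo39 (50.6% ± 6.97), Hs3st4, a heparan sulfate enzyme gene (57.8% ± 8.86), Fam107a (45.5% ± 4.44) and Cend1 (49.4% ± 4.48). At Fbxo39 the 20 positions of the run lay between 48.1% and 56.7%, beside 41.1% to 54.0% over the 71 positions of the Igf2r run.

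Long even members were not all flat. Nkx2-4, a homeobox gene of the developing forebrain, had 252 positions across its start at 51.7% ± 3.83 (chr2:147083854-147085376, n = 27), and its position means rose and fell between 27.4% and 83.4%. Gata6 and Sall3, a GATA and a zinc finger transcription factor gene, had 245 positions at 46.4% ± 2.74 and 290 positions at 43.9% ± 3.41. Position means ran from 13.6% to 66.9% at Gata6 and from 16.0% to 64.8% at Sall3. Gata6 mainly rose along the DNA, with 36.0% on the left and 55.2% on the right of its best split.

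**Figure D5:**
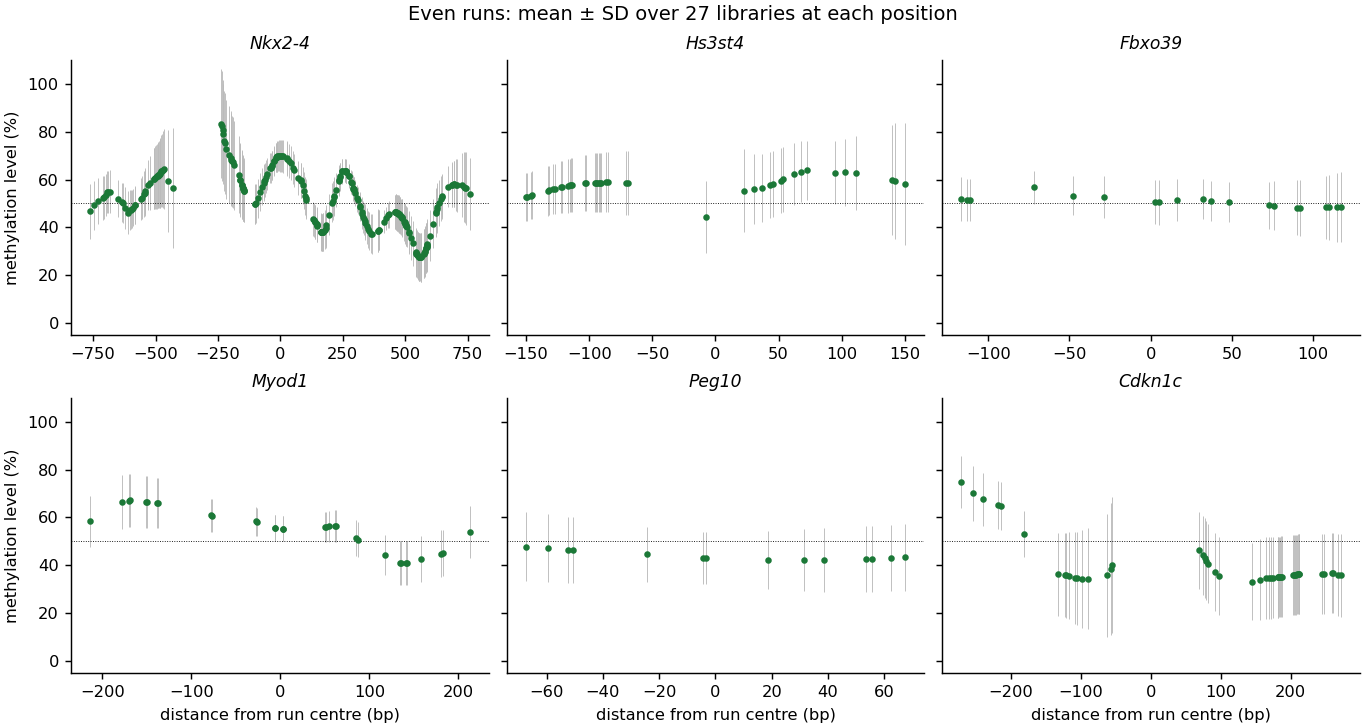
Methylation level (%) at each position against distance from the run's centre (bp) for 6 even members, as mean and SD over 27 libraries. Fbxo39 and Peg10 are flat, whereas Nkx2-4 undulates between 27.4% and 83.4%.

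Members lay less at gene starts than runs in general. Of 707 members off chromosome 18, for which the promoter table was used, 435 (61.5%) were within 1000 bp of a listed gene start, 238 (33.7%) were elsewhere in a gene and 34 (4.81%) were between genes. The table does not list every start, that of Myod1 for one. Over 13888 autosomal runs the shares were 76.0%, 22.0% and 2.01%. A start fell inside the run for 24.9% of members and for 45.5% of all autosomal runs. Among the promoters that overlapped a run by at least 100 bases, the 194 at members had a median GC content of 64.2% and a median ratio of observed to expected CpGs of 0.692, against 65.7% and 0.844 for the 7613 at any autosomal run. The median promoter held 20 CpGs at members and 26 at all. The letters TGCCGC, the methylated motif bound by the imprint-protecting factor ZFP57, or GCGGCA on the other strand, occurred in 41 of the 194 (21.1%) and in 1903 of the 7613 (25%). They were present once in the printed Snrpn and Grb10 promoters.

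Within 5 kb of members there were 431 neighbouring runs, of which 44.3% were below 20%, 17.9% at 40% to 60% and 14.8% above 60%, with a median of 25.5%. The 6894 neighbours of all autosomal runs had shares of 71.7%, 6.85% and 9.82% and a median of 5.75%. The 8 neighbours of members at imprinted genes included 6 at 40% to 60%, among them both pairs already given for Zrsr1 and Cdkn1c. By chromosome, members were 3.95% of runs on chromosome 16 at the lowest and 6.39% on chromosome 7 at the highest. On the X chromosome, which is not part of the rule, 63 of 419 runs (15.0%) met the same limits, with a median SD between libraries of 6.77 points.

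Some members were at genes of cell identity. Myod1, the transcription factor gene that commits cells to the muscle lineage, had an even member across the annotated 5′ end of the gene (chr7:46376422-46376849) at 55.1% ± 5.44 (n = 27), the only member among 15 runs of the myogenic list. Pou5f1 and Utf1, pluripotency genes, had even members at 54.9% ± 7.94 (chr17:35506043-35506237) and 56.9% ± 4.37 (chr7:139943889-139944479), 2 of the 8 runs of that list. The germline list gave 2 of 28, the patchy member of the meiosis gene Mei1 at 40.7% ± 3.78 and the stepped one of Brdt. The Hox genes, which pattern the body axis, gave 7 of 61 (11.5%), at Hoxb5, Hoxb3os, Hoxb1, Hoxc12, Hoxd10, Hoxd1 and Hoxa6, with means from 40.3% to 48.8%. Olfactory and vomeronasal receptor genes gave 3 of 14, clustered protocadherins 4 of 36 and genes named Zfp 8 of 345 (2.32%). Lists for other cell types gave 1 of 7 for neural genes (Gfap, 59.4%), none of 10 for fibroblast and adipocyte genes and none of 1 for immune genes. All but the zinc finger genes and the last 2 lists lay above the 5.07% of all autosomal runs, on counts too small to read further.

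Runs lay close together on both sides of the limits. The members nearest its lower end were Mapk9 at 40.03%, Rab26 at 40.06% and Syt14 at 40.06%, and just outside stood Apoc2 at 39.97%, Atoh1 at 39.96% and Grin3a at 39.95%. At the upper end Ccdc185 (59.97%), Cfap45 (59.97%) and Morn3 (59.9%) were inside, and Vstm2l (60.01%), St8sia6 (60.03%) and Il16 (60.04%) outside.

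The rule was also applied to part of the libraries, as a description. The runs to choose from were still those built from positions with a level in all 27 libraries. The rule and shape limits were also set with all libraries known. All libraries are of 1 line and replicates may be technical, so agreement between the parts is no independent test. When the 9 libraries numbered 1 alone chose runs by the same rule, 753 runs were found. In the 18 other libraries 682 of them (90.6%) again averaged 40% to 60%, and all 753 averaged between 34.3% and 67.8%. The median absolute difference between both sets of libraries was 1.57 points. Of 446 runs that were even in the choosing libraries 401 were even in both sets (89.9%), and all 97 stepped runs had their step in the same direction in the other libraries, 85 of them as stepped runs again.

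The time course was tested on run means in percent with limma over all 14720 runs of any chromosome, with Benjamini-Hochberg adjustment and a threshold of 0.05. No member passed for a 24 h rhythm, where 0% of all runs were called. At an unadjusted p under 0.05 there were 52 members (7.17%), beside 4.3% of all runs. For any difference between time points limma called no member and 0.00679% of all runs (1 run), with 38 members (5.24%) and 4.33% of all runs at the unadjusted threshold. For a linear trend no member and 0% of runs were called, with 50 members (6.9%) and 4.99% of runs unadjusted. The smallest adjusted limma p of any member was 0.966 for rhythm, 0.987 for any difference and 0.988 for trend. The median amplitude was 1.709 points in members and 0.722 points in all runs, and members also had the larger spread between libraries, 5.26 against 2.2 points. That spread was 4.95 points in the 2023 autosomal runs between 20% and 80% that were not members. The mean over members was 48.7% ± 1.15 at 12 h and stayed within 49.0% to 49.4% at the other 8 time points (n = 3 libraries each).

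Myod1 had the smallest unadjusted rhythm p of the members. Its 3 libraries had 51.2%, 43.3% and 56.6% at 12 h, 54.2%, 58.5% and 49.7% at 18 h, 62.1%, 64.6% and 63.6% at 24 h, and 58.7%, 50.9% and 59.5% at 30 h. They had 48.9%, 59.7% and 55.3% at 36 h, 55.4%, 52.4% and 51.4% at 42 h, 59.1%, 55.3% and 62.5% at 48 h, 48.2%, 56.6% and 59.1% at 54 h, and 49.4%, 51.9% and 48.1% at 60 h. The 24 h libraries lay above those of every other time point except 48 h. The 48 h libraries overlapped with those of every other time point except 60 h. The fitted amplitude was 4.73 points (SE 1.15), with an unadjusted limma p of 0.00086 and an adjusted p of 0.966. Next in order were Hsd17b1, an oestrogen-forming enzyme gene (5.22 points), Pde8a, a cyclic AMP phosphodiesterase gene (3.40 points), Bcl2l1, a survival gene (5.15 points), and Gnas (5.59 points), also with adjusted p of 0.966 in limma. Igf2r had an amplitude of 7.0 points (SE 3.20) and an unadjusted limma p of 0.100. Its limma p for any difference between time points was 0.0581 unadjusted and 0.987 adjusted.

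For any difference between time points the smallest unadjusted values were at Bbof1, Stk10, Utp4, Cbln4 and Arhgap8, each with an adjusted limma p of 0.987. The Bbof1 member had 46.9%, 50.8% and 54.4% at 12 h and 63.1%, 63.6% and 62.1% at 18 h, its lowest and highest time points. For the trend they were at Spr, Rfx4, Cbx7, Camk2a and Ccdc39. Spr, the sepiapterin reductase gene, had a member 7430 bp from the gene that averaged 47.7% ± 9.38 at 60 h and 54.9% ± 2.36 at 12 h (n = 3 each). The fitted slope over 48 h in limma was -10.2 points (SE 2.83), with an adjusted p of 0.988. Rfx4 had a slope of 10.2 points, Ccdc39 8.93, Camk2a 6.12 and Cbx7 -4.18, none of which passed.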

How the data were processed

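DNA methylation was measured by reduced representation bisulfite sequencing in 27 libraries of C2C12 cells. Per the submitters' processing notes, reads were handled with Bismark 0.14.4, Bowtie2, Trim Galore 0.4.0 and cutadapt 1.9.1, and mm10 was the build. No source used here gives their settings or how levels were made from reads. One table was deposited by the authors, of 937644 positions with a methylation level as a fraction from 0 to 1 per library, per the file headers and the values. It has no read counts or coverage, so levels carry no counting interval and no weights. Positions count from 1: within RefSeq promoters 49.8% were the C and 49.8% the G of a CpG.

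The 871894 positions with a level in all libraries were joined into 14720 runs, 14301 on autosomes, and levels were averaged per run and library and printed as percentages. The SD between libraries is that of the run mean over 27 libraries. Members, gene lists and shape classes were chosen with earlier results of these data known, so no list gets a test of its own. Genes were placed with RefSeq tables of GRCm38.p6. The promoter table is not complete, and chromosome 18 was not used for gene starts. Runs are named by a listed gene, else by a gene start within 1000 bp, else by the nearest protein-coding gene. Named are all members at imprinted, myogenic, pluripotency and germline genes, the 10 flattest even, the 10 widest stepped, the 5 longest by positions, the 5 with the smallest p per time test and 3 runs on each side of each end of the range; others were named after their values were seen. One of the flattest even runs is not reported here.

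Time was tested with limma 3.58.1 in R 4.3.3 (empirical Bayes, all libraries sharing 1 estimate of spread), as a 24 h cosine and sine, as a factor and as a linear trend, and was first tested on simulated data. Replicate numbers did not pair the samples: the deviations of same-numbered libraries had a mean correlation of 0.00663 over 108 pairs, and those of differently numbered ones -0.00328 over 216. Other work used Python 3.11.15 with numpy 2.4.6, pandas 2.3.3, scipy 1.17.1 and matplotlib 3.10.9. Alternatives changed the gap, the minimum of positions, the range, the library limits, the weight of positions 1 bp apart, the gene margin, the shape limits, the scale, a replicate block and the libraries used.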

Additional observations from a re-analysis of the deposited data

How the results depend on the processing

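With at least 20 positions per run there were 438 members, 259 even and 48 stepped. With a range of 45% to 55% there were 369 members, 6 of them at imprinted genes, 237 even and 48 stepped. With side means at least 30 points apart, 146 members were stepped. The other settings kept these counts within 1.5 times: members numbered 787 with gaps of at most 100 bp, 781 with no library limits (19 at imprinted genes) and 589 with 1 value per group of positions 1 bp apart. That last setting left 11 members at imprinted genes and moved named runs out of the range: Grb10 to 61.1%, Bbof1 to 61.9%, Yif1b to 36.4% and Ccdc39 to 35.1%. Leaving out each library in turn gave 718 to 739 members, 13 to 15 at imprinted genes, 428 to 447 even and 93 to 99 stepped. Of the 20 members with the largest residual SD, 5 to 7 were at imprinted genes when 1 library was left out, and 7 among members of at least 300 bp; these settings were chosen after seeing the data. In each time test no member was called by limma under any of 31 settings, the M-value scale and the replicate block (0 members in each test) included; unadjusted counts were 22 to 58 for rhythm, 6 to 51 for any difference and 23 to 55 for trend. The unknown depth and the shared information between neighbouring positions limit how firmly levels of short runs can be read.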
